A study of Saccharomyces cerevisiae with 63 samples.

Results

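The comparison described here followed 1 strain, an ime4 mutant of budding yeast, from 3 h to 5 h after transfer to sporulation medium. It was defined by sample: the 3 libraries of ime4 at 5 h were set against the 3 libraries of ime4 at 3 h, which makes 6 of the 63 libraries of the study, and all genes entered the test. All strains were diploids of the SK1 background, a strain background that sporulates fast and in good synchrony, and in all of them the meiotic inducer gene IME1 stood under a copper-inducible promoter (pCUP-IME1). Cells selected for respiratory growth were pregrown in glucose and then in acetate medium, moved to medium with 0.3% potassium acetate at 0 h, and given 50 µM copper sulfate at 2 h, so that 3 h and 5 h were 1 h and 3 h after copper. PolyA RNA was sequenced at 7 times in WT, ime4 and pho92, with 3 biological replicates per strain and time per the labels. The labels give the genotype as an ime4 mutant without naming the allele, and the strain called WT carries pCUP-IME1 as well.

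IME4 encodes the catalytic subunit of the enzyme complex that writes N6-methyladenosine (m6A) on yeast mRNA, a mark that builds up early in meiosis, and Pho92 is the YTH-domain protein that reads it. In yeast meiosis Ime1 turns on the early genes, which serve DNA replication, chromosome axis formation and recombination. The transcription factor Ndt80 then turns on the middle genes, which drive the meiotic divisions and the formation of spore membranes, and late genes for the spore wall follow. The DNA replication genes themselves are known for short bursts of transcription at the start of S phase, in mitotic as in meiotic cells.

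IME4 transcript was all but missing from the 6 libraries. IME4 (YGL192W, chromosome VII, 142246 to 144048 on the R64 assembly) had 3, 4 and 8 raw reads at 3 h and 9, 10 and 5 at 5 h, against 342 ± 20.04 and 274 ± 10.8 CPM (reads scaled to library size; mean ± SD, n = 3) in WT at the same times. Total counts of the 6 libraries lay between 14438893 and 20926221, and the 100 most abundant genes took 23.82% to 26.69% of them. Libraries of 1 time correlated at 0.9838 to 0.993 over genes on the log scale and libraries of different times at 0.9585 to 0.9744. Of the 7 markers of diploid meiotic cells, none was at 0, and their summed level was 10796 to 13525 CPM at 3 h and 11596 to 13746 CPM at 5 h. The 10 markers of haploid cells were all detected at a low summed level, 190.0 to 232 CPM at 3 h and 243 to 263 CPM at 5 h.

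IME1 itself, the inducer, was read at 2429, 2117 and 2500.2 CPM in replicates 1, 2 and 3 at 3 h and at 3862, 3238 and 3509 CPM at 5 h. The 5 h libraries were all higher, but the difference did not pass the test (log2 fold change 0.59, SE 0.25, adjusted p = 0.0831), except in fits to the 6 libraries alone (adjusted p = 0.0186, and 0.0118 with a replicate block). At 2 h, the time of copper addition, IME1 stood at 4659, 4170 and 4129 CPM in ime4, above all libraries of 3 h and 5 h. At 0 h it was at 998.5, 1167 and 1369 CPM. How its level followed copper was not tested. IME2, the kinase gene that Ime1 switches on, stood at 1625, 1398 and 1409 CPM and then at 1810.4, 1737 and 2264 CPM, again without overlap and without a call (adjusted p = 0.499). PHO92 was at 766, 684 and 715 CPM and 639.7, 611 and 722 CPM, groups that overlapped (adjusted p = 0.869).

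Between 3 h and 5 h the ime4 cells lost transcripts of the DNA replication machinery and gained transcripts of ribosomal proteins, and a set of middle and late meiotic genes rose from very low levels. Of 5822 genes tested with the quasi-likelihood (QL) F test of edgeR, 1395 (24.0%) were called at an adjusted p (Benjamini-Hochberg) under 0.05, and here "rose" and "fell" are used of such genes only. There were 631 genes higher at 5 h (10.8% of the tested) and 764 lower (13.1%). A log2 fold change of at least 1 in size was reached by 243 of the higher genes (4.17%) and 136 of the lower (2.34%). The median log2 fold change over all genes was -0.02 and its median size 0.268. The 3 libraries of 1 time lay wholly above those of the other for 2922 genes (50.2%), with 1356 higher at 5 h (23.3%) and 1566 lower (26.9%). Levels are relative to the total of each library, and in such bulk samples fewer cells of a type cannot be told apart from less RNA of it per cell. The numbers of calls were 371 higher and 785 lower when libraries were scaled by total counts in place of TMM factors, 900 in all without ime4 5 h replicate 3, and 2134 in a fit to the 6 libraries alone. With the replicate number as a block in that last fit, called the paired fit from here on, 2562 genes were called, 1257 higher and 1305 lower. Numbers of list members called in the paired fit are to be read against these larger numbers.

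Genes for DNA synthesis had large falls. POL30 (YBR088C, chromosome II, 424990 to 425766) encodes PCNA, the sliding clamp of DNA polymerases, and was read at 428, 368 and 406 CPM at 3 h and at 89.7, 118 and 86.5 CPM at 5 h. All 5 h libraries were far below all 3 h libraries (log2 fold change -2.03, SE 0.24, adjusted p = 1.85e-08). CDC21, which encodes thymidylate synthase, went from 309, 241 and 293 CPM to 69.7, 91.8 and 73.2 CPM (log2 fold change -1.84, SE 0.22, adjusted p = 1.87e-08). RAD27, the flap endonuclease gene that finishes Okazaki fragments, went from 179, 162 and 178 CPM to 51.1, 63.7 and 51.3 CPM (log2 fold change -1.64, SE 0.21, adjusted p = 6.97e-08). For neither gene did the times overlap. MSA2, whose product helps to activate G1-specific transcription, had the largest fall of the 12 named by size, from 177, 157 and 170.2 CPM to 31.8, 45.8 and 28.8 CPM (log2 fold change -2.24, SE 0.25, adjusted p = 7.62e-09).

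Short stretches upstream of these genes are printed because they hold the 6-base MluI cell cycle box (MCB, ACGCGT), the known binding site of the MBF transcription factor that times the S-phase genes. Each is 30 bases of the RefSeq R64 reference, of S288C and not of SK1, written 5′ to 3′ on the strand of the gene, with the box in capitals.
POL30, chrII:425944-425973, reverse strand: ccaaaacgcgaaACGCGTaacttttttttt
CDC21, chrXV:467730-467759, reverse strand: taatatttggtgACGCGTtaaatagaaaaa
CDC21, chrXV:467693-467722, reverse strand: agaccttaattgACGCGTttcctgaaatat
CDC45, chrXII:346074-346103, reverse strand: acatatcatctaACGCGTtttaagaaattt
MSA2, chrXI:583466-583495, forward strand: aattgacgcgaaACGCGTtaaagtgcaaaa
RAD27, chrXI:226038-226067, reverse strand: cagatccccctaACGCGTttaaagctttta
The boxes began 195 bases before the start codon in POL30, 158 and 121 in CDC21, 150 in CDC45, 175 in MSA2 and 180 in RAD27. CDC45, whose product is part of the replicative helicase, had a second box at 180 bases and RAD27 at 128. In the 300 bases before the start codon, searched on both strands, the box was found in 205 of 5506 tested genes with a window (3.7%). It was found in 60 of the 121 genes with a window that fell by log2 1 or more (49.6%), in 116 of 746 that fell at all (15.5%), and in 4 of 609 that rose (0.7%). Of the 44 DNA replication genes listed, 22 held it (50.0%), and of the 11 histone genes none did. A match is a run of letters and says nothing of whether a factor was bound.

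Over the list of DNA replication genes, 37 of 44 fell and none rose, with a median log2 fold change of -0.78 against -0.02 over all genes. Their summed level was 7838, 6691 and 7538 CPM at 3 h and 3659.7, 3983 and 3715 CPM at 5 h, so that all libraries of 5 h were near one another and well below 3 h. The lagging-strand starters were among the deepest: POL12, a subunit of polymerase alpha, had a log2 fold change of -1.93 and PRI2, of primase, of -1.85. CDC45 stood at -1.72, the checkpoint mediator MRC1 at -1.60, DPB2 of polymerase epsilon at -1.58 and CTF4, which couples helicase to polymerase, at -1.38. The adjusted p-values of these 6 lay between 9.93e-09 for CTF4 and 1.04e-06 for PRI2. The 7 members that did not pass the test, named after their values were seen, were MCM10, CDC7, SLD3, SLD5, POL2, DPB4 and RFC1. Other large falls of the 12 named by size were those of SIR2, the silencing histone deacetylase (-1.65), ESC8, a gene linked to silencing (-1.99), CIN2 of tubulin folding (-1.89) and DIN7, a mitochondrial nuclease gene (-1.65).

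The supply of nucleotides was split. Of 10 genes for dNTP supply, 5 fell and 1 rose. RNR1, the large subunit of ribonucleotide reductase, fell from 646, 497 and 546 CPM to 189, 225 and 153 CPM (log2 fold change -1.58, adjusted p = 0.000419), and DUT1, the dUTPase gene, had a log2 fold change of -1.51. RNR4, a small subunit of the same reductase, went the other way, from 106, 121 and 140.2 CPM to 307, 245 and 364 CPM (log2 fold change 1.32, SE 0.18, adjusted p = 2.84e-07), with no overlap between times. CDC8 and DUN1, the other 2 that fell and outside the naming rule, had log2 fold changes of -0.84 and -0.50.

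Histone genes fell in 6 of 11 cases and rose in none, with a median log2 fold change of -1.20, but 1 library carried much of the size. HHT1, 1 of the 2 copies of the histone H3 gene, was read at 1168, 1162 and 3341 CPM at 3 h and at 741, 811 and 429 CPM at 5 h. The groups did not overlap, and replicate 3 at 3 h was nearly 3 times as high as the other 2 (log2 fold change -1.52, SE 0.35, adjusted p = 0.000928). The same library led in HTA1 (1994, 2059 and 4767 CPM at 3 h, 1184, 1361 and 929 at 5 h, log2 fold change -1.34), in HTB1 (-1.35) and in HHT2 (-0.98). The sum over the 11 genes was 10806, 10271 and 23284 CPM at 3 h and 7015, 7577 and 5225 CPM at 5 h. Without that library 3 histone genes fell and 2 rose, and HHT1 was no longer called (log2 fold change -0.82, adjusted p = 0.0803). In the paired fit 6 histone genes fell and 2 rose, and HHT1 was not called there either (log2 fold change -1.33, adjusted p = 0.0613). Reads of the near-identical histone copies may have been shared among them, so single values are uncertain.

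**Figure D1:**
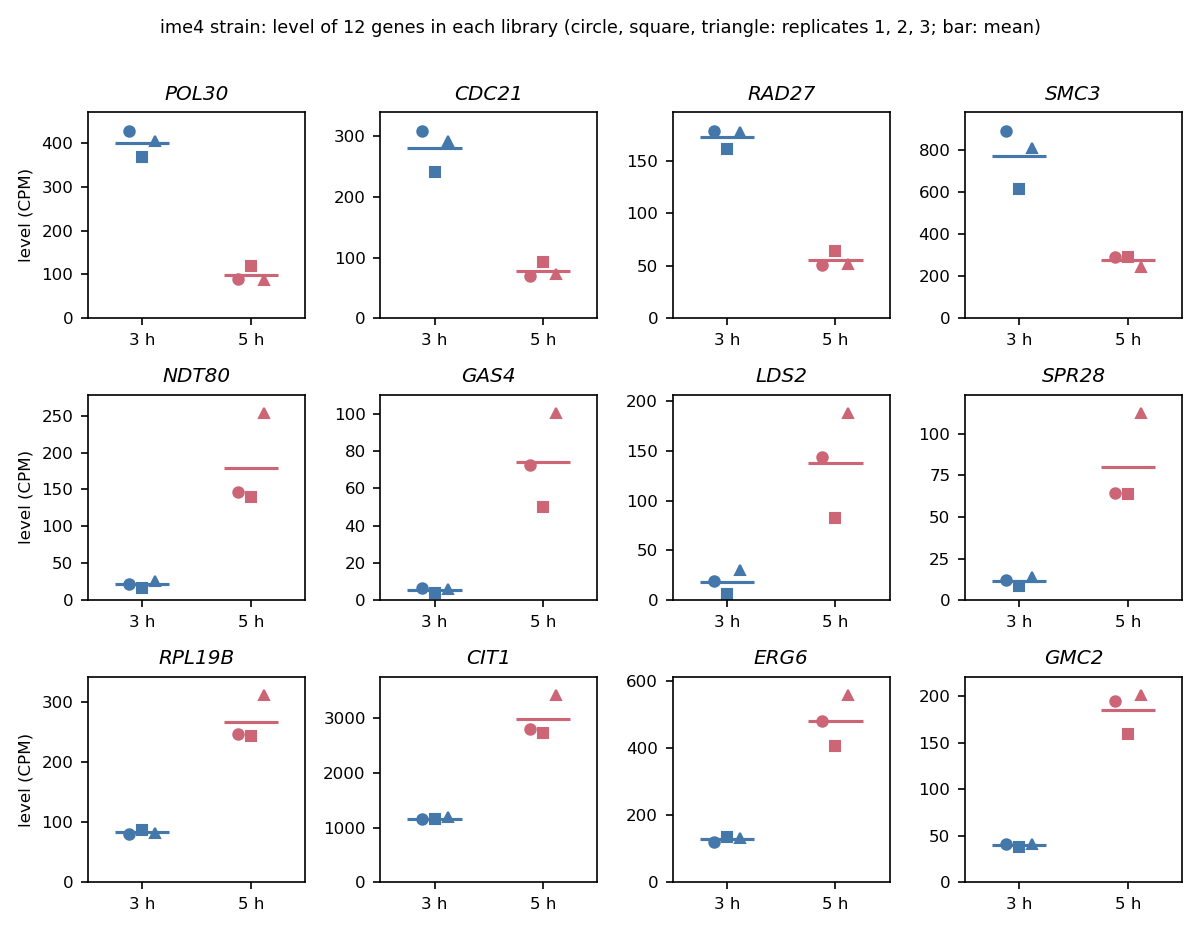
Level in CPM (linear axis from 0) of 12 genes in the 6 ime4 libraries, at 3 h and 5 h. Circles, squares and triangles are replicates 1, 2 and 3 and bars are means; POL30, CDC21, RAD27 and SMC3 sit lower at 5 h in every library, and the other 8 genes sit higher in every library.

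Cohesin genes fell with the replication genes, and the number of calls among genes of meiotic chromosome structure and recombination depended on the fit. In the list of chromosome axis and cohesin genes 3 of 10 fell and 1 rose (4 and 3 in the paired fit). SMC3, a core subunit of the cohesin ring that holds sister chromatids together, fell from 888, 613 and 807 CPM to 289, 291 and 241 CPM (log2 fold change -1.49, SE 0.29, adjusted p = 0.000113). SMC1 (-1.45) and IRR1 (-1.25), of the same ring, fell alike, and the times did not overlap in any of them. MAM1, a monopolin subunit that ties sister kinetochores together in meiosis I, rose from 12.7, 6.76 and 14.2 CPM to 33.4, 24.8 and 46.0 CPM (log2 fold change 1.63, SE 0.39, adjusted p = 0.00139). REC8, the meiotic cohesin subunit, was at 2748, 1771 and 2177 CPM and 1615, 1406 and 1704 CPM (adjusted p = 0.429), and HOP1, an axis protein gene, had a log2 fold change of -0.35 (adjusted p = 0.664). Neither was called in the fit to all libraries, although their groups did not overlap.

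Of 11 genes for double-strand break formation, 2 fell (18.2%, against 13.1% of all genes) and none rose, while in the paired fit 2 fell and 4 rose. The 2 in the fit to all libraries were SAE2, an activator of end processing (log2 fold change -0.85), and XRS2, of the Mre11 complex (-0.44). SPO11, which encodes the protein that cuts the DNA, was at 151, 123 and 136 CPM and then at 219, 210.3 and 242 CPM, higher in all libraries of 5 h (log2 fold change 0.71, SE 0.29, adjusted p = 0.0623). It was called with limma-voom (adjusted p = 0.0445), in the fits to the 21 ime4 libraries (0.0146) and to the 6 alone (0.000939), and in the paired fit (0.00103). Among 13 strand exchange genes, RFA1, the large subunit of the single-strand binding protein RPA, fell from 762, 579 and 735 CPM to 350.3, 335 and 346 CPM (log2 fold change -1.01, SE 0.21, adjusted p = 0.000316). RAD55, a mediator of strand exchange, was the other that fell (-0.54, adjusted p = 0.0365), and its call was lost when any 1 of the 6 libraries was left out (adjusted p of 0.0692 to 0.112). The 2 that fell were 15.4% of the 13, near the 13.1% of all genes. In the paired fit, where 1305 genes fell and 1257 rose in all, 3 of the 13 fell and 3 rose.

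Of 13 genes of the synaptonemal complex and of crossover formation, GMC2 alone was called in the fit to all libraries, while 6 rose and 2 fell in the fit to the 6 libraries, paired or not. Gmc2 is part of the central element of the synaptonemal complex, which zips homologues together. Its transcript was at 41.5, 38.4 and 41.0 CPM at 3 h and 195, 159.6 and 201 CPM at 5 h (log2 fold change 2.20, SE 0.42, adjusted p = 0.00011). Each 5 h library was at least 3 times as high as any 3 h library. SPO22, of the ZMM group of crossover proteins, also stood higher in all libraries of 5 h (680.0, 523 and 601 CPM, then 926, 845 and 1021 CPM) but was not called (0.63, adjusted p = 0.125), except in the fit to the 6 libraries alone (0.00727) and the paired fit (0.00392).

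NDT80, the master regulator of the middle genes (YHR124W, chromosome VIII, 356561 to 358444), rose from 21.6, 16.3 and 26.6 CPM to 146, 139.7 and 253 CPM (log2 fold change 3.06, SE 0.45, adjusted p = 1.04e-06). Every 5 h library was more than 5 times as high as any 3 h library, and replicate 3 was the highest at both times. In the list of 35 middle meiotic genes 14 rose, NDT80 among them, and 1 fell, against 10.8% and 13.1% of all genes. The median log2 fold change of the list was 1.07, and in 27 of the 35 the 3 libraries of 5 h lay wholly above those of 3 h (23.3% of all genes). SPS2, a spore wall gene with the largest rise of the 12 named by size, went from 1.99, 0.966 and 1.505 CPM to 15.8, 13.5 and 38.6 CPM (log2 fold change 3.93, SE 0.77, adjusted p = 0.000166), or 3.30 without replicate 3 of 5 h. SPR28, which encodes a septin of sporulation, went from 12.01, 8.77 and 14.1 CPM to 64.5, 63.7 and 112 CPM (log2 fold change 2.78, SE 0.47, adjusted p = 1.4e-05). SPO74, of the meiotic outer plaque of the spindle pole body, had a log2 fold change of 2.56 and CRR1, a spore wall hydrolase gene, of 2.12. The member that fell, NUD1, a scaffold of the spindle pole body, is outside the naming rule (-0.72).

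The summed level of the middle genes was 2645, 1986 and 2584 CPM at 3 h and 3756, 3318 and 4383 CPM at 5 h, and replicate 2 was the lowest at both times. Without ime4 3 h replicate 2 the number that rose was 9, and in the fit to the 6 libraries alone it was 25 (27 in the paired fit).

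Stretches from the promoters of genes that rose are shown because they hold the middle sporulation element (MSE, here GNCACAAA), the site that Ndt80 is known to bind. They were taken and written as for the MCB, and where the element lies on the other strand the capitals show its reverse complement.
NDT80, chrVIII:356329-356358, forward strand: ccaggccgtatGACACAAAagagtagaaaa
NDT80, chrVIII:356465-356494, forward strand: ttgccctccatTTTGTGTCacctatttaag
SPS2, chrIV:1485315-1485344, reverse strand: aaaaaaaatatTTTGTGGCattacttagac
SPR28, chrIV:905131-905160, reverse strand: tgcgtctacatTTTGTGTCattcccataag
GAS4, chrXV:71178-71207, forward strand: actgaggtagcGGCACAAAaaaacgacaca
DTR1, chrII:589589-589618, forward strand: tggtgaaaaacGACACAAActcctttgtaa
NDT80 held 2 such elements, which began 221 and 85 bases before its start codon. The element was present in the windows of 22 of the 35 middle genes (62.9%) and of 10 of the 23 late spore wall genes (43.5%), against 233 of 5506 windows (4.2%). Of the 232 genes with a window that rose by log2 1 or more, 34 held it (14.7%), and of the 121 that fell as far, 2 did (1.7%).

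**Figure D2:**
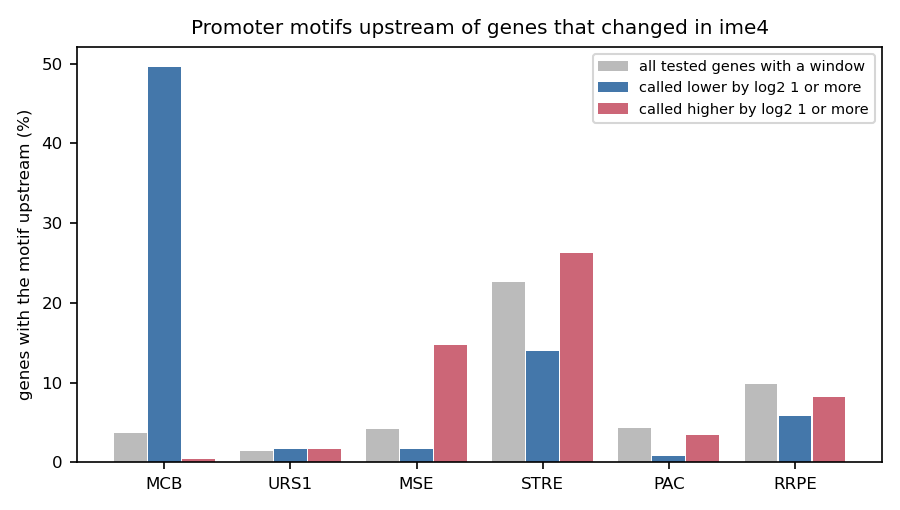
Share (percent, axis from 0) of genes with a match in the 300 bases before the start codon, for all tested genes with a window, genes called lower by log2 1 or more and genes called higher by log2 1 or more. The motifs are MCB (ACGCGT), URS1 (TAGCCGCC), MSE (GNCACAAA), the stress element STRE (AGGGG) and the ribosome biogenesis elements PAC (GCGATGAG) and RRPE (AAAATTTT), on either strand; MCB stands at 49.6% among the lower genes and MSE at 14.7% among the higher.

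Late spore wall genes rose in 12 of 23 cases and fell in none, with a median log2 fold change of 1.19. GAS4, a glucan-remodelling enzyme gene of the spore wall outside this list, was among the 12 largest rises, from 6.36, 3.86 and 6.18 CPM to 72.4, 49.9 and 100.3 CPM (log2 fold change 3.76, SE 0.55, adjusted p = 9.84e-07). LDS2, of the spore lipid droplets, went from 19.7, 6.03 and 30.0 CPM to 144, 82.1 and 188 CPM (log2 fold change 2.89, SE 0.61, adjusted p = 0.000388), with replicate 2 the lowest at both times. LDS1 had a log2 fold change of 2.88, DTR1, the exporter of dityrosine precursors, of 2.84, and RRT12, a subtilisin-type protease gene of the spore wall, of 2.60. SHC1, an activator of chitin synthesis in sporulation, rose from 60.0, 68.0 and 65.2 CPM to 178, 172 and 212 CPM (1.54, adjusted p = 8.38e-05). Without ime4 3 h replicate 2, 8 of the 23 were called.

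Of 15 listed regulators of meiotic entry 2 rose (13.3%, near the 10.8% of all genes) and 1 fell (6.7%, against 13.1%), with 5 and 3 in the paired fit. RME1, the haploid repressor of IME1, was at 35.1, 25.7 and 33.4 CPM and then 49.6, 40.5 and 43.4 CPM (log2 fold change 0.50, SE 0.19, adjusted p = 0.0449); the call was lost with the replicate block within strain (adjusted p = 0.0517) with total-count scaling (0.208) and without any 1 of 4 libraries (highest 0.221, without 3 h replicate 2). RIM15, a kinase gene for entry into quiescence and meiosis, rose by 0.42 on the log2 scale and RPD3, the histone deacetylase of the Ume6 complex, had a log2 fold change of -0.27. RIM15 was not called without 3 h replicate 2 (adjusted p = 0.119), 5 h replicate 2 or 5 h replicate 3, and RPD3 was not with total-count scaling (0.0554). SUM1, the repressor of the middle genes, stood at 119, 97.3 and 119 CPM and 158, 129 and 145 CPM, higher in all libraries of 5 h but not called (0.37, adjusted p = 0.0533), except with a replicate block within strain (0.0144), in the fit to the 6 libraries alone (0.0261), in the paired fit (0.00548) and without 5 h replicate 2 (0.0392). Of the 6 genes of the m6A methyltransferase complex only MUM2 was called, at a log2 fold change of 0.32 (adjusted p = 0.0449), and it was not with total-count scaling (0.308), in the fit to the 6 libraries alone (0.0668) or without 3 h replicate 2 (0.303), 5 h replicate 1 or 5 h replicate 3. No B-type cyclin gene of 6 was called (1 in the fit to the 6 libraries alone, 2 in the paired fit). CLB5, an S-phase cyclin gene, had a log2 fold change of -0.27 and CLB4 of -0.22. Of 20 genes of mitotic G1 and cell separation 7 fell (10, and 4 rose, in the paired fit), led by DSE4 (-1.28), EGT2 (-1.20) and DSE1 (-1.05), which encode or control enzymes and wall proteins of daughter cell separation. The 7 were 35.0% of the list, against 13.1% of all genes, and 5 fell without 3 h replicate 1. The median log2 fold change of the list was -0.22.

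Most genes for cytosolic ribosomal proteins rose. Of 119 listed, 85 rose and none fell, with a median log2 fold change of 1.05, and in 107 of them all libraries of 5 h exceeded all of 3 h. Their summed level was 3250.0, 4559 and 3072 CPM at 3 h and 6819, 7321 and 7592 CPM at 5 h, with replicate 2 the highest at 3 h. RPL19B went from 80.3, 87.4 and 82.3 CPM to 247, 243 and 311 CPM (log2 fold change 1.68, SE 0.29, adjusted p = 1.99e-05), and RPS30A, RPL19A and RPS26A had log2 fold changes of 1.63, 1.59 and 1.55. The list was drawn by name and so took in RPP1, a subunit of RNase P, which was not called. The count was 60 with total-count scaling and 59 to 95 when 1 of the 6 libraries was left out, and the A and B copies of a gene may have shared reads.

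Few calls were made among the factors that assemble ribosomes. Of 47 ribosome biogenesis genes 3 rose (6.4%) and 1 fell (2.1%), shares below those of all genes, with a median log2 fold change of 0.19. UTP20 (0.80) and UTP4 (0.89), of the small subunit processome, and MAK21 (0.60), of large subunit assembly, rose, and UTP5 fell (-0.84). In all, 1 of the 47 was called with total-count scaling, without 3 h replicate 3 or without 5 h replicate 3, where UTP4, MAK21 and UTP5 each lost the call, and 12 rose and 3 fell in the paired fit. Of 24 genes of RNA polymerases I and III, RPC53 rose from 53.9, 58.2 and 60.8 CPM to 124, 112 and 136 CPM (1.11) and RPC19 had a log2 fold change of 0.92, which was not called with total-count scaling (adjusted p = 0.0827) or without 3 of the libraries in turn (highest 0.0967), and 5 of the 24 rose in the paired fit. The 2 that rose in the fit to all libraries were 8.3% of the list, below the 10.8% of all genes. Of 67 mitochondrial ribosomal protein genes 10 fell and none rose, a share of 14.9% that is near the 13.1% of all genes, with MRPL7 the furthest (29.9, 35.1 and 32.8 CPM, then 19.0, 22.8 and 18.9 CPM, -0.69). In 40 of the 67, however, all libraries of 5 h lay below all of 3 h, a larger share than the 26.9% of all genes, and in 1 they lay above. The median log2 fold change was -0.26, and 4 to 11 fell when 1 library was left out and 27 in the paired fit.

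Genes of respiration and carbon metabolism rose in part. Of 11 genes of the tricarboxylic acid cycle 3 rose (8 in the paired fit), with CIT1, citrate synthase, going from 1149.6, 1158 and 1189 CPM to 2801, 2734 and 3411 CPM (log2 fold change 1.36, SE 0.21, adjusted p = 5.09e-06). MDH1, malate dehydrogenase, rose by 0.83 and LPD1, lipoamide dehydrogenase, by 0.44 on the log2 scale, the latter not called with total-count scaling (adjusted p = 0.0529). Of 36 respiratory chain or ATP synthase genes 9 rose and none fell, by 0.77 in ATP14, but with total-count scaling 2 did and in the paired fit 26. Of 20 genes for acetate use and gluconeogenesis 6 rose, among them the acetate and lactate transporter genes ADY2 (0.78) and JEN1 (0.86) and PCK1, the entry enzyme of gluconeogenesis (0.93); without ime4 3 h replicate 3 or without 5 h replicate 3 the number was 1, and in the paired fit 13.

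Genes of sugar uptake and glycolysis rose in part as well. HXK1, a hexokinase gene, went from 94.1, 95.2 and 108 CPM to 544, 315 and 399 CPM (log2 fold change 2.08, SE 0.27, adjusted p = 9.31e-08), with no overlap, and the glycolysis list had 7 of 18 higher and 2 lower. PGK1 rose by 1.70 and PFK1 by 0.75, while the glucokinase gene GLK1 had a log2 fold change of -0.51. Without ime4 5 h replicate 3, 2 of the 18 were called, PFK1 and GLK1 not among them (adjusted p = 0.0575 and 0.0572), and in the paired fit 12 rose and 3 fell. GAL2, a galactose and glucose permease gene, went from 13.8, 9.58 and 15.3 CPM to 55.8, 41.3 and 66.3 CPM (log2 fold change 2.08, SE 0.29, adjusted p = 6.11e-07), and 4 of 10 hexose transporter genes rose in all, HXT4 (0.90), HXT14 (2.44) and the barely expressed HXT1 being the others. HXT4 was not called without 5 h replicate 1 (adjusted p = 0.17), HXT1 was not in most alternatives (0.381 without that library), and in the paired fit 6 of the 10 rose and 1 fell. Of 16 trehalose and glycogen genes 7 rose and 1 fell. PGM2, phosphoglucomutase, rose by 1.21, GSY1, glycogen synthase, by 0.93, and GLG2, a starter of glycogen chains, by 0.91, and TSL1 of trehalose synthesis had a log2 fold change of -0.71.

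SSA3, an Hsp70 chaperone gene, led 7 of 19 stress and heat shock genes that rose, from 83.8, 52.9 and 61.9 CPM to 699, 342 and 835 CPM (log2 fold change 3.24, SE 0.38, adjusted p = 1.85e-08), with replicate 2 the lowest at both times. HSP12, a small membrane-protecting protein gene, rose by 1.53 and SIP18, a desiccation protein gene, by 1.67. In the paired fit 11 of the 19 rose and 1 fell. ERG6, of the last steps of ergosterol synthesis, rose from 119.9, 137 and 134 CPM to 481, 406 and 557 CPM (log2 fold change 1.89, SE 0.25, adjusted p = 2.44e-07). ERG5, which acts after it, rose by 1.60, ERG25 by 0.69, and the early mevalonate kinase gene ERG12 had a log2 fold change of -0.58, in a list with 4 of 24 higher and 1 lower (12 and 2 in the paired fit). The calls were 16.7% and 4.2% of the list, against 10.8% and 13.1% of all genes. ERG25 was not called with total-count scaling (adjusted p = 0.0575), without 3 h replicate 1 (0.103) or without 5 h replicate 3 (0.0823), and ERG12 was not without 5 h replicate 1 (0.0582). Of 33 proteasome genes 3 rose by small amounts, PRE3 by 0.52, RPN8 by 0.42 and PRE7 by 0.40, a share near the 10.8% of all genes. None did with total-count scaling, and 13 did in the paired fit. In 14 of the 33 all libraries of 5 h lay above all of 3 h, a larger share than the 23.3% of all genes.

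Nutrient lists gave few calls. Among 11 copper-responsive genes CTR3, a copper importer gene, rose (0.97), and CTR2 (-0.75), MAC1 (-0.54) and FRE7 (-0.57) fell. These were 9.1% and 27.3% of the list, against 10.8% and 13.1% of all genes. The 4 calls fell to 1 without 3 h replicate 2 or without 5 h replicate 3, where CTR3, MAC1 and FRE7 each lost theirs (adjusted p of 0.0535 to 0.146), and FRE7 lost its call in 5 of the 6 fits that left out 1 library (all but that without 5 h replicate 2). Among 17 phosphate-responsive genes PHO3 rose (0.77), and GIT1 (-1.09), VTC4 (-0.48) and PHO8 (-0.32) fell, 5.9% and 17.6% of the list. PHO8 was not called with total-count scaling or without any 1 of 5 libraries (highest adjusted p 0.13), and in the paired fit 2 of the 17 rose and 6 fell. Of 22 nitrogen-regulated genes the allantoinase gene DAL1 (1.16) and the urea permease gene DUR3 (0.76) rose and the allantoate permease gene DAL5 fell (-1.04), 9.1% and 4.5% of the list. DAL5 was not called without 5 h replicate 3 (adjusted p = 0.0552), and 4 of the 22 rose and 3 fell in the paired fit. Of 55 amino acid biosynthesis genes 4 rose, ARO4 the furthest (1.08), and 7 fell, ARO2 the furthest (-1.04), shares below and near those of all genes. There were 2 calls without ime4 5 h replicate 1 or replicate 3, and ARO4 was not called without 3 h replicate 1 (adjusted p = 0.0707). In the paired fit 7 rose and 23 fell.

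Of 20 haploid and mating genes 4 rose and 1 fell (7 and 3 in the paired fit), against 10.8% and 13.1% of all genes. The rises were from low levels, and the share that rose rests on these 4 genes. FAR1, which arrests mating cells in G1, went from 2.80, 3.90 and 3.39 CPM to 8.69, 15.9 and 19.7 CPM (log2 fold change 2.13, SE 0.30, adjusted p = 6.11e-07). The pheromone genes MFA2 (1.49) and MF(ALPHA)1 (1.40) and the receptor gene STE3 (1.03) were the others that rose, and GPA1, outside the naming rule, fell (-0.83). The receptor gene STE2 had 15.0, 14.7 and 12.7 CPM and 15.4, 15.2 and 17.0 CPM and was not called (adjusted p = 0.456).

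**Figure D3:**
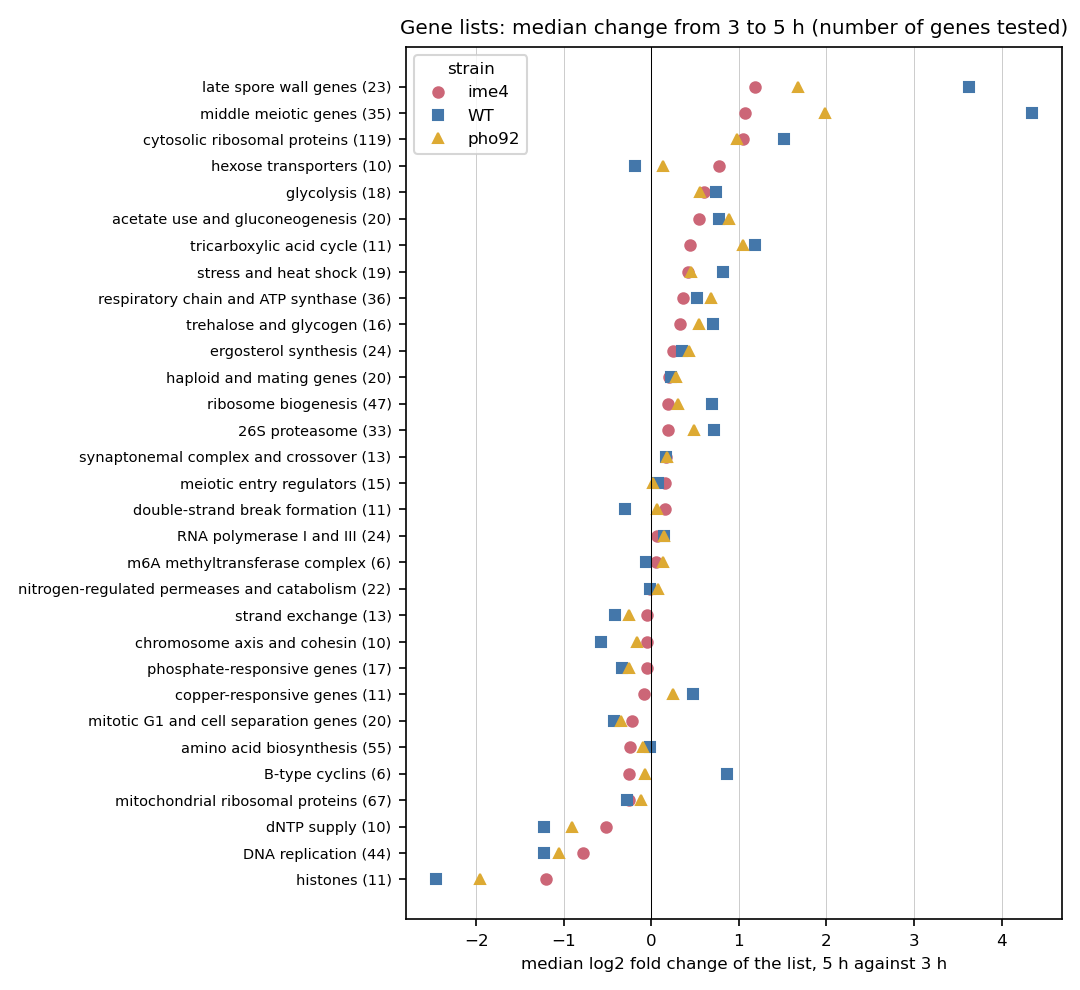
Median log2 fold change from 3 h to 5 h over the tested members of 31 gene lists, in ime4, WT and pho92 (each strain 3 libraries a time). The middle meiotic genes stand at 1.07 in ime4, 4.35 in WT and 1.98 in pho92, and the cytosolic ribosomal proteins at 1.05, 1.51 and 0.98.

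To ask where the course of the mutant differed, the 3 h to 5 h change of ime4 was set against that of WT, which shares no library with it. WT had 3037 genes called (52.2%), 1420 higher (24.4%) and 1617 lower (27.8%), with a median size of change of 0.452. Of the 631 genes that rose in ime4, 456 also rose in WT (72.3% of the ime4 rises and 32.1% of the WT rises), and of the 764 that fell, 608 also fell in WT (79.6% and 37.6%). Opposite calls were made for 21 genes. The test of the difference itself called 839 genes (14.4%), with 475 higher in ime4 relative to WT (8.16%) and 364 lower (6.25%), and for 762 of the 839 the change was the larger in WT. The difference reached log2 1 for 129 of the higher genes (2.22%) and 233 of the lower (4.00%). With total-count scaling, which moved the median difference by 0.177 on the log2 scale, the split was 576 higher and 265 lower. The number was 412 without WT 5 h replicate 1 and 523 without ime4 3 h replicate 2.

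**Figure D4:**
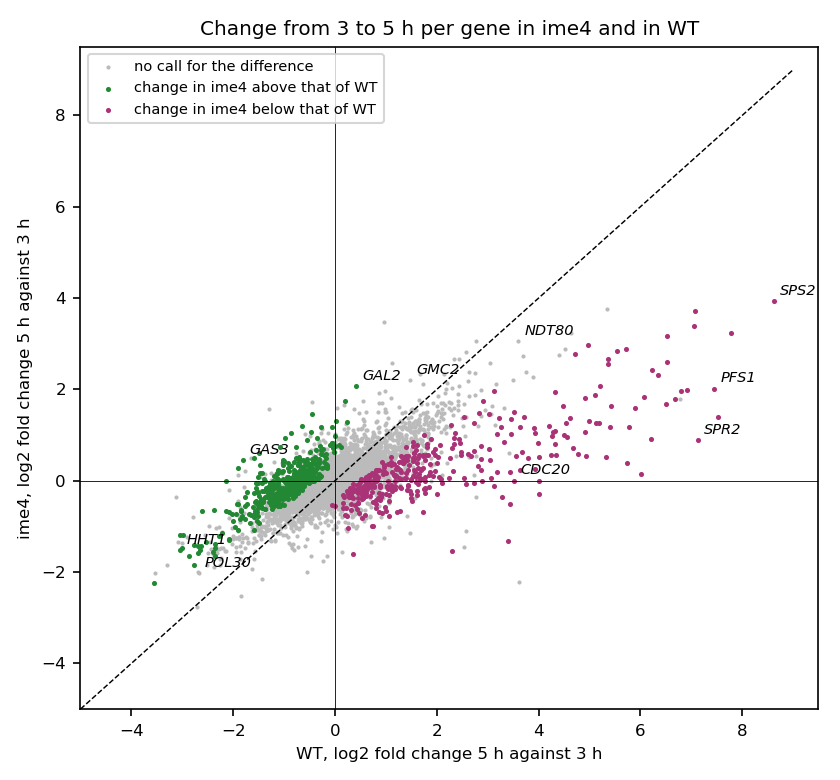
Log2 fold change from 3 h to 5 h in WT (x axis) and in ime4 (y axis) for each tested gene, with the diagonal of equal change. Green points are the 475 genes whose change in ime4 was called above that in WT and purple points the 364 called below it; labelled genes include SPR2 and PFS1 far to the right of the diagonal and GAS3 and GAL2 above it.

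The change of most middle genes was lower in ime4 than in WT. In WT 30 of the 35 rose, with a median log2 fold change of 4.35, and the sum of their mean levels went from 3441 to 25960.0 CPM. The difference was called for 25 of the 35 as lower in ime4 and for 1 as higher. Over all genes, 158 were called lower in ime4 relative to WT without WT 5 h replicate 1, against 364 with it. The numbers for the gene lists were not examined without that library. SPR2, a sporulation gene of the late list, was at 6.08, 2.32 and 7.17 CPM and 7.60, 11.2 and 10.1 CPM in ime4, and at 10.4, 6.51 and 5.27 CPM and 2226, 607 and 257 CPM in WT. All WT libraries of 5 h were above all others, and they differed from one another by nearly 9 times. The difference in change was -6.23 (SE 1.03, adjusted p = 8.26e-05), and -4.98 without WT 5 h replicate 1, the highest. SPS2 rose in both strains, to 4802, 1598 and 747 CPM in WT at 5 h, with a difference of -4.70 (SE 1.02, adjusted p = 0.0015). The other 5 of the 6 largest among genes with a standard name were PFS1, SMA2, LOH1, SPO19 and BIL2, with differences of -5.43, -5.35, -5.30, -4.88 and -4.82, which stayed called at -4.41, -4.18, -4.39, -3.89 and -3.84 without that library. PFS1, SMA2, LOH1 and SPO19 act in the formation of the prospore membrane and the spore wall.

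NDT80 was an exception among them. It stood at 136, 68.4 and 50.5 CPM at 3 h and 1662, 815 and 606 CPM at 5 h in WT, where every library was above those of ime4 at the same time, but its change differed by -0.53 (SE 0.58, adjusted p = 0.584), which did not pass the test. GAS4 (-1.58, adjusted p = 0.12) and LDS2 (-1.62, adjusted p = 0.175) did not pass it either, while SPR28 did (-1.93 (SE 0.63, adjusted p = 0.0311)). Late spore wall genes were called lower in ime4 relative to WT in 12 of 23 cases and higher in none. That number was not examined without WT 5 h replicate 1 either. For SHC1 the difference was 0.04 (SE 0.40, adjusted p = 0.959), which did not pass the test.

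Of 44 DNA replication genes 4 were called for a difference, all as higher in ime4, a share near the 8.16% of all genes, while 37 fell in each strain with medians of -0.78 and -1.23. RAD27 stood at 76.9, 84.9 and 118 CPM and 10.2, 14.01 and 14.01 CPM in WT, and its change differed by 1.23 (SE 0.29, adjusted p = 0.00292). CTF4 (0.97) was called, and POL30 was not (0.65 (SE 0.33, adjusted p = 0.182)). CDC21, of the list for dNTP supply, was called as well (0.92). Of the 11 histone genes 5 were called, HHT1 among them (1.53 (SE 0.48, adjusted p = 0.0259)).

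The 6 largest differences in the other direction were of genes that fell in WT. GAS3, a gene of the glucan-remodelling family, was at 207, 184 and 380.2 CPM and 411, 335 and 308 CPM in ime4 and at 292, 338 and 265 CPM and 83.6, 85.9 and 86.8 CPM in WT. The WT libraries separated without overlap and the ime4 libraries did not, with replicate 3 of ime4 at 3 h far above the others of that time; the difference in change was 2.26 (SE 0.39, adjusted p = 0.000124). AIM34, a mitochondrial protein gene (2.16 (SE 0.29, adjusted p = 3.43e-06)), and GIC1, a Cdc42 effector gene of budding (2.11 (SE 0.57, adjusted p = 0.00923)), had the same outlying library. Without it all 3 rose in ime4, with log2 fold changes of 0.85, 0.68 and 1.39. TOS4, a gene of the G1/S programme, fell in WT (-2.61, difference 1.94 (SE 0.41, adjusted p = 0.00119)). In ime4 it had -0.67, which was called in the fits to the 6 libraries (adjusted p = 0.0106) and to the 21 ime4 libraries (0.0393) and in the paired fit (0.00458), but not in the fit to all libraries. ARI1, an aldehyde reductase gene (0.94 against -0.97), and SRL1, a cell wall mannoprotein gene (1.04 against -0.87), rose in ime4 and fell in WT, with differences of 1.92 and 1.92. The rises of ARI1 and SRL1 were lost when some single libraries were left out (highest adjusted p 0.126 and 0.061).

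Members of the lists that differed in direction or size from WT included regulators. RME1 rose by 0.50 in ime4 and had -0.76 in WT (difference 1.27 (SE 0.27, adjusted p = 0.00128)), and SUM1 had 0.37 and -0.50 (difference 0.86 (SE 0.20, adjusted p = 0.00279)). EXO1, a nuclease gene of crossover formation, had -0.67 in ime4 and 1.27 in WT (difference -1.94 (SE 0.49, adjusted p = 0.00557)), and CLB4 -0.22 and 1.62 (difference -1.84 (SE 0.58, adjusted p = 0.026)). WT 5 h replicate 1 carried much of both WT changes. At 5 h in WT EXO1 was at 486, 207 and 142 CPM and CLB4 at 626, 208 and 132 CPM, against 108 to 125 and 99.1 to 111 CPM at 3 h. Their differences without that library were not examined. GAL2 rose in ime4 and was not called in WT (2.08 and 0.41, difference 1.67 (SE 0.41, adjusted p = 0.00405)), and the same held for HXT4 (difference 1.45 (SE 0.36, adjusted p = 0.00437)). ERG25, a C-4 sterol oxidase gene, rose in both, from 199.9, 279.9 and 242 to 377, 357 and 430.1 CPM in ime4 and from 135, 168 and 164 to 1397, 1272 and 1142 CPM in WT, with a difference of -2.34 (SE 0.31, adjusted p = 2.94e-06). Of the 33 proteasome genes 32 rose in WT, and 10 were called as lower in ime4, with a median difference of -0.49. Of the 119 cytosolic ribosomal protein genes 105 rose in WT and 1 was called as lower in ime4, with a median difference of -0.46.

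**Figure D5:**
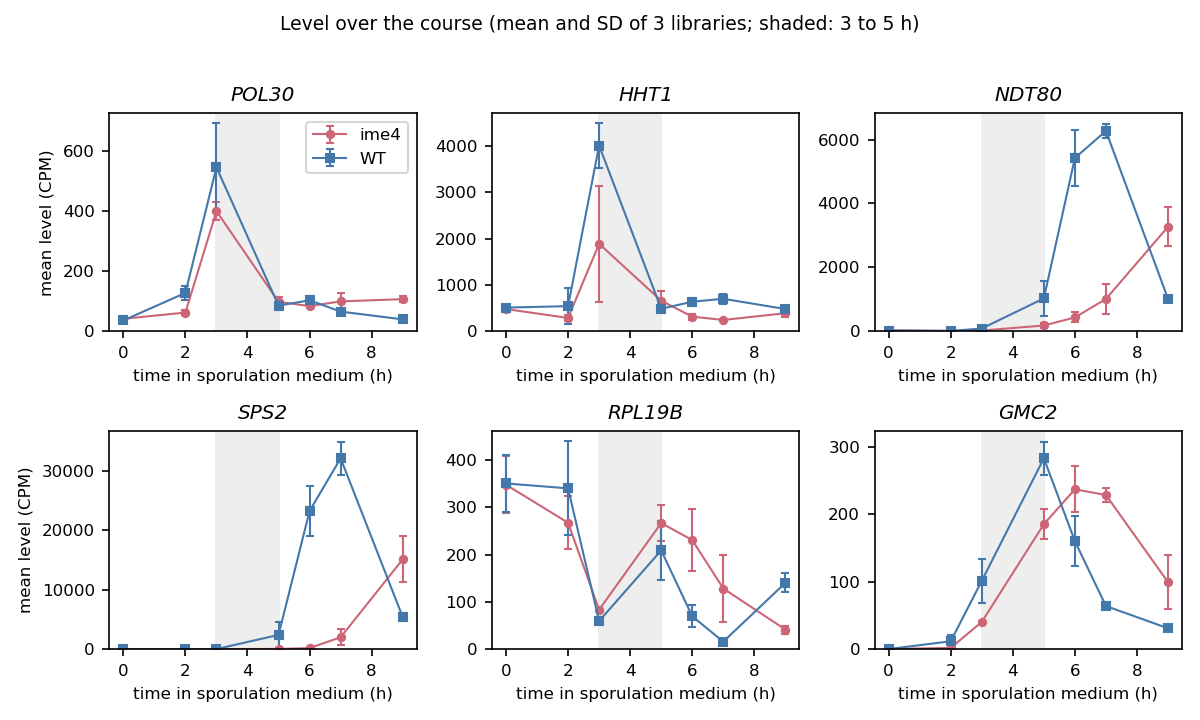
Level in CPM of 6 genes at 0, 2, 3, 5, 6, 7 and 9 h in ime4 and WT (mean, with bars for the SD of 3 libraries), with the interval from 3 h to 5 h shaded. POL30 and HHT1 fell in both strains over the interval, NDT80 and SPS2 stayed lower in ime4, and RPL19B and GMC2 rose in both.

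Against pho92, the strain that makes the mark but lacks its reader, no gene passed the test of a difference. The interval brought 1881 calls in pho92 (32.3%), 869 higher (14.9%) and 1012 lower (17.4%), with 503 of the 631 ime4 rises (79.7%, and 57.9% of the pho92 rises) and 604 of the 764 falls (79.1% and 59.7%) called the same way and none the opposite way. The difference in change was called for 0 genes (0%) by edgeR, DESeq2 and limma-voom, with 232 genes at an unadjusted p under 0.05 in edgeR and a median SE of 0.26 per gene. This does not show that the strains changed alike. The middle genes rose in 29 of 35 cases in pho92, with a median of 1.98, and pho92 replicate 1 stood apart at 5 h: NDT80 was at 566, 292 and 228 CPM and SPS2 at 606, 76.1 and 63.6 CPM, against 146, 139.7 and 253 CPM and 15.8, 13.5 and 38.6 CPM in ime4. For SPS2 the difference in change between ime4 and pho92 was -1.84 (SE 1.00, adjusted p = 0.997), and for NDT80 it was 0.34 (SE 0.58, adjusted p = 0.997).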

How the data were processed

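The deposited values were raw read counts (whole numbers, as per the file headers) of 6088 genes in 63 libraries. A stranded kit and 500 ng of total RNA per library were used for sequencing of 50-nt single reads, per the labels' protocols. The authors' tools, per the submitters' processing notes, were bcl2fastq 2.17.1.14, TopHat2 2.0.14, Bowtie, HTSeq 0.6.1, R 3.5.1 and DESeq2 1.22.1. The strand setting and the handling of reads with several matches are not given in those notes, and the authors' genome build was not given in the sources used here, so overlapping genes and close paralogs may share reads. Of the gene identifiers, 5575 matched the R64 annotation and 513 did not, and the deposited start positions equalled R64 for 99.93% of the matched genes.

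Counts were tested with edgeR 4.0.16 in R 4.3.3 (limma 3.58.1 and DESeq2 1.42.0 as alternatives). Genes passed filterByExpr by group with a minimum count of 10, which removed 266. TMM factors scaled the libraries, and 1 QL model with a mean for each of 21 groups was fitted to all 63 (42 residual degrees of freedom, common biological coefficient of variation 0.184). CPM are on the TMM-scaled library size, and each SE is from the edgeR fit. Contrasts were 5 h minus 3 h in each strain and the difference of ime4 from WT and from pho92, with Benjamini-Hochberg adjustment over the 5822 genes. The code was tested on simulated data.

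The members and gene lists were chosen with earlier results of these data known. Named genes were IME4, PHO92, IME1, IME2 and NDT80, the 12 largest rises and the 12 largest falls among called genes with a standard name, at least 10 CPM in 1 group and no overlap, the 6 largest differences from each other strain in each direction, and the 4 list members with the smallest adjusted p. Other genes were picked after their values were seen, the 7 marker genes of meiotic cells and 10 of haploid cells aside. The values of a few genes are not reported here.

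Same-numbered ime4 libraries deviated together from their group means (correlations over genes of 0.347, 0.36 and 0.157), while differently numbered ones had -0.318 to 0.027. The labels do not say that a number marks a shared culture, so the fit to all libraries has no block. Its calls, SE and adjusted p-values take no account of such pairing, and the paired fit is given as an alternative. In WT the same-numbered libraries had 0.244, 0.058 and 0.21 and in pho92 0.334, -0.019 and 0.458. Differently numbered libraries reached 0.162 in WT and 0.045 in pho92, above the lowest of these, so pairing was less clear there. Counts of replicate libraries of 1 time differed beyond counting error, with chi-square values of 33.89 to 92.3 for each degree of freedom, so none was merged.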

Additional observations from a re-analysis of the deposited data

Results flagged for a closer look

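An edgeR test of the difference found that 839 genes changed otherwise between 3 h and 5 h in ime4 than in WT, and the 12 largest by the naming rule are given here as the change in ime4 minus the change in WT on the log2 scale. Above WT stood GAS3 at 2.26, AIM34 at 2.16, GIC1 at 2.11, TOS4 at 1.94, ARI1 at 1.92 and SRL1 at 1.92. Below WT stood SPR2 at -6.23, PFS1 at -5.43, SMA2 at -5.35, LOH1 at -5.30, SPO19 at -4.88 and BIL2 at -4.82. All 12 kept their call and direction in each alternative fitted, with the sizes below WT smaller when WT 5 h replicate 1 was left out.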

How the results depend on the processing

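No gene called in ime4 changed sign in any alternative. The number of calls was 379 with a log2 threshold of 1, 2134 in the fit to the compared libraries alone, and 900 to 1246 when 1 library was left out (899 of the 900 were also called with all 6). For the difference from WT these numbers were 362, 1658 and 412 to 887. The difference from pho92 gave 0 calls throughout, leave-one-out fits included (0 to 0), except 1 with a replicate block. With the replicate block in the fit to the compared libraries alone, 2562, 1813 and 1 genes were called, and with the replicate block within strain in the fit to all libraries 1544, 948 and 0. DESeq2 called 1540 and 993 genes, limma-voom 1494 and 886. Of the 122 named genes called in ime4, 81 were called in every alternative that gave a value. Where a call was lost the cause was not tested. With 3 libraries a group, genes of small change or low count limit what could be called, and leave-one-out fits assume that a pair of libraries varies like the other groups.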

Other observations

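Further groups of genes, picked after their values were seen, fell between 3 h and 5 h in ime4. MSH6, a mismatch recognition gene, went from 594, 503 and 508 CPM to 199, 210.2 and 167 CPM (edgeR log2 fold change -1.48, adjusted p = 9.64e-08), and PMS1 (-1.38) fell too, while MSH3 (-0.21) was not called. Of the chromatin assembly genes RLF2 (-1.55) and CAC2 (-1.25) of CAF-1 and the histone chaperone genes ASF1 (-1.34) and RTT106 (-1.05) fell, and MSI1 was not called (-0.61). PDS5, a cohesin regulator, fell from 1288, 921 and 1213 CPM to 429, 421 and 365 CPM (-1.50), and ECO1, which acetylates cohesin, had -1.22. MCD1, a cohesin subunit gene of the same picked group, was not called (-0.65, edgeR adjusted p = 0.0968). Kinetochore genes that fell were MIF2 (-1.26), CTF19 (-1.29), MTW1 (-1.19), DUO1 (-1.23), DAD2 (-1.32) and CTF13 (-0.93).

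Among genes known from mating and cell fusion, 6 that rose were picked for it. PRM4 went from 50.1, 61.1 and 45.0 CPM to 184, 164 and 262 CPM (1.97, adjusted p = 2.53e-10), and PRM6 (2.73), PRM2 (2.27), FIG1 (1.77), PRM1 (1.41) and FUS2 (0.74) rose from lower levels, while FUS1 (0.14, adjusted p = 0.686) was not called. CHO2 and OPI3, which encode the methyltransferases that turn phosphatidylethanolamine into phosphatidylcholine, went opposite ways in the 2 strains. CHO2 had -0.82 in ime4 and 0.53 in WT (difference -1.35 (SE 0.29, adjusted p = 0.00126)), and OPI3 had -0.75 and 0.59 (difference -1.35 (SE 0.35, adjusted p = 0.00789)). In ime4 CHO2 went from 228, 404 and 190 CPM to 151, 188 and 126 CPM, and OPI3 from 280, 418 and 289 CPM to 172, 231 and 182 CPM. Replicate 2 at 3 h was far the highest in both, and fits without it were not examined for these 2 genes. CDC20, the activator of the anaphase-promoting complex, was at 29.1, 22.2 and 22.7 CPM and 25.4, 23.0 and 25.7 CPM in ime4, where its libraries overlapped, and had a log2 fold change of 3.52 in WT (difference -3.52 (SE 0.63, adjusted p = 0.000181)). The differences of the subunit genes APC1 (-1.97), APC2 (-1.94), APC11 (-1.65) and CDC26 (-1.92) were called, and those of CDC16 (-1.01), CDC23 (-0.97) and CDC27 (-0.06) were not. Fits without WT 5 h replicate 1 were not examined for CDC20 and these subunit genes.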
